A study of Mus musculus with 24 samples.

Results

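The glucocorticoid and corticotropin-releasing hormone (CRH) genes of the stress axis were followed in the nucleus accumbens (NAc), the part of the ventral striatum best known for its role in reward. They were 10 of the 52636 genes in the count files, listed by name for their role in the stress axis, with earlier results of these data known. The list held the glucocorticoid receptor gene Nr3c1 and the mineralocorticoid receptor gene Nr3c2, the glucocorticoid-induced genes Fkbp5, Sgk1 and Tsc22d3, the steroid-activating enzyme gene Hsd11b1, and the CRH genes Crh, Crhr1, Crhr2 and Crhbp. RNA-seq was done on 24 mice killed at 50 days of age, with 1 library per animal. The labels give their strain as C57BL/6, and the methods of the study name the substrain C57BL/6J. There were 6 Con females and 6 Con males, which were not separated, and 6 MSUS females and 6 MSUS males, which underwent maternal separation combined with unpredictable maternal stress on postnatal days 1 to 14. The daily separation lasted 3 h according to the methods of the study and 2 h according to the series text. Neither the litter of an animal nor the stage of the estrous cycle of every female is given in the labels, and p-values therefore measure the spread between animals as labelled.

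Under stress, hypothalamic CRH drives pituitary release of corticotropin, which in turn drives the adrenal gland to release glucocorticoids. In the brain these steroids bind the high-affinity mineralocorticoid receptor and the lower-affinity glucocorticoid receptor, which move to the nucleus and act on target genes. CRH is also made by neurons outside the hypothalamus, and in the NAc it is a local signal acting on the CRH receptors, while CRH-binding protein sequesters the peptide.

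The summed sense-strand counts per library lay between 39923666 and 70575745. The share of uniquely mapped pairs that fell in no gene was 31.0 to 34.8% in Con females and 36.3 to 43.9% in MSUS females, with no overlap, and 34.7 to 40.6% and 32.2 to 44.7% in Con and MSUS males. All 9 markers of striatal projection neurons were detected, with summed levels between 1517 and 4359 CPM (counts scaled to the library total). All 8 markers of cortical excitatory neurons were detected as well. Their summed levels were 203 to 1479 CPM in Con females, 75.5 to 663 in MSUS females, 111 to 1052 in Con males and 123 to 1479 in MSUS males. The part of these differences in the results below was not tested, though some fits hold one of them as a covariate. In females the share of pairs in no gene did not overlap between the groups, so a fit that holds it cannot reliably separate it from MSUS. In bulk tissue, fewer cells of a type and less RNA per cell cannot be told apart.

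Values per animal are normalized counts, that is sense counts divided by the size factor of the library. All 10 genes passed the filter on low counts in every comparison. Sequences upstream of RefSeq transcription starts (GRCm38.p6) were available for 8 of the 10 genes, in 15 windows of 250 bases. They were searched for the palindromic letters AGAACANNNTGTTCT, which spell the full glucocorticoid response element and read the same on both strands. A match is only a match of letters. It was present in 3 of all 32851 windows (0.00913%), and 1 of these lay upstream of a start of Sgk1. The half-site AGAACA, on either strand, was far more common, at 16.1% of all windows and 4 of the 15, all of them of Sgk1 or Tsc22d3. The Sgk1 window is shown because it holds the full element (in capitals). It lies on the plus strand at chr10:21993640-21993889, inside the gene, before one of its 6 listed starts, and the element begins 189 bases before that start.
Sgk1: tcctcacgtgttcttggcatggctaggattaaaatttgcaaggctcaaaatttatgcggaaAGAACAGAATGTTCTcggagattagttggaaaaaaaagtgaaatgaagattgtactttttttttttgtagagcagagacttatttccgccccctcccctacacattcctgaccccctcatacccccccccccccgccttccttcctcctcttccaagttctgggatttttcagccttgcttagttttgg
The windows of Crhr1 (chr11:104132531-104132780, plus strand) and Hsd11b1 (chr1:193242361-193242610, minus strand) are shown because these genes passed the test in females. Neither window holds the element or its half-site, so nothing is in capitals. The only Hsd11b1 window lies inside the gene, and the sequence upstream of the gene's outer end was not searched.
Crhr1: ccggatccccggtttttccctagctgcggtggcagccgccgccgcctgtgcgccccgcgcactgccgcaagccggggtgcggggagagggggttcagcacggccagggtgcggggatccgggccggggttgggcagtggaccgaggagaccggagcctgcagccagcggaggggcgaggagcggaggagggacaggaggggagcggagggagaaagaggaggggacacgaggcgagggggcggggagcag
Hsd11b1: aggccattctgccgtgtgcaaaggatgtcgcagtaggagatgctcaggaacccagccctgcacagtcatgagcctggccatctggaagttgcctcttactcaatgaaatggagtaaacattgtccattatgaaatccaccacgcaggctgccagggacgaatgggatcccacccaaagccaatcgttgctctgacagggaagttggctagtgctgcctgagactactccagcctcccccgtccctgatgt

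Levels were compared between genes per kilobase of exonic length. Nr3c1 was the highest of the 10, with 871 ± 59.7 normalized counts per kb (SD, n = 24), followed by Nr3c2 with 716 ± 68.1 and Sgk1 with 565 ± 59.5. Each of these exceeded the next in the order in 23 of the 24 animals, although their ranges overlapped. Tsc22d3 followed with 404 ± 61.1 and lay above Fkbp5, with 219 ± 20.2, in all 24 animals without overlap. Crhbp (203 ± 130) could not be ordered against Fkbp5 or Crhr1 (183 ± 26.8) beyond its spread. Fkbp5 exceeded Crhbp in 17 animals and Crhbp exceeded Crhr1 in 10. Fkbp5 lay above Crhr1 in every animal but MSUS male 6 (201 against 227 per kb). Crh had 107 ± 58.0 and lay below Crhr1 in 21 animals. Hsd11b1 had 43.7 ± 12.97, below Crh in 22 animals, and Crhr2 had 17.1 ± 3.41, below Hsd11b1 in all 24. Both steroid receptors thus lay among the more abundant transcripts, Nr3c1 at the 87.3rd and Nr3c2 at the 84.0th percentile of the 21500 genes tested over all animals, and Crhr2, the receptor preferred by the urocortins, at the 16th.

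**Figure D1:**
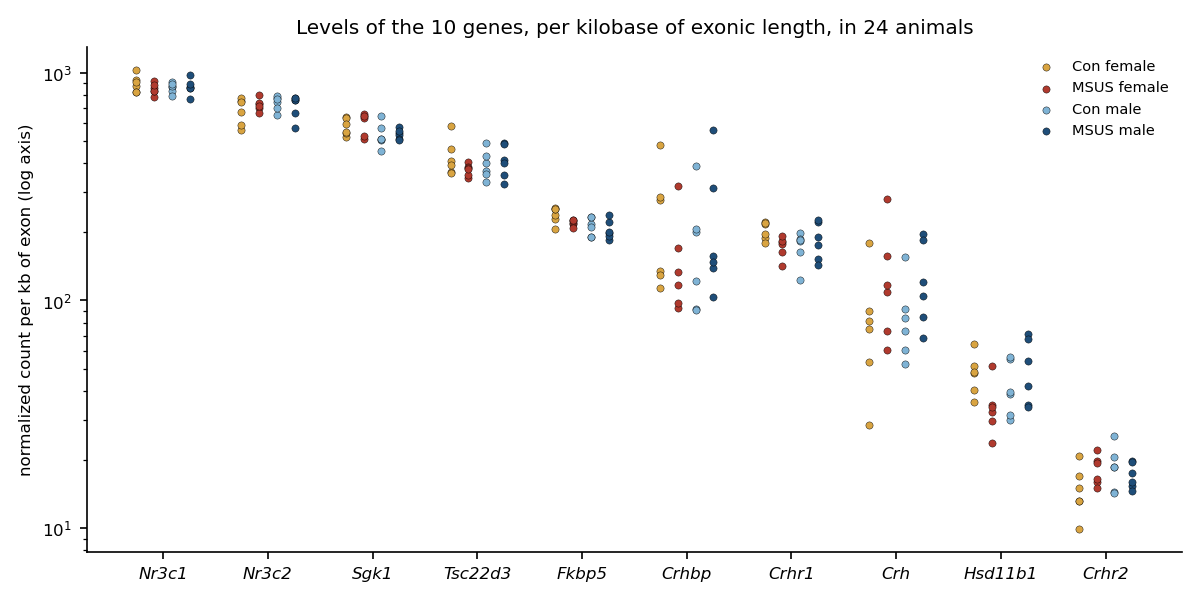
Normalized counts per kilobase of exonic length (log axis) of the 10 genes in each of the 24 animals, coloured by group. The genes stand in the order of their mean level, from Nr3c1 at 871 to Crhr2 at 17.1, and Crhbp and Crh are the most spread out.

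The first question was whether MSUS was accompanied by a different level of these genes in females. Of the 10 genes, 2 passed the test, and both were lower in MSUS: Crhr1, the main CRH receptor of the brain, and Hsd11b1, which encodes the enzyme that regenerates active corticosterone inside cells. This share of 20% lies near the background, since 25.1% of all 20571 genes tested in females passed, 13.1% higher and 11.9% lower. DESeq2 also called 2 of the 10 genes, against 28.1% of all genes. The median log2 fold change (MSUS over Con) was -0.10 over the 10 genes and -0.003 over all genes. At an unadjusted p under 0.05 there were 3 of the 10 genes and 32.7% of all genes. In none of the 10 genes were the Con and MSUS females without overlap, which was the case for 7.21% of all genes. The plot of all animals shows the values by group.

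**Figure D2:**
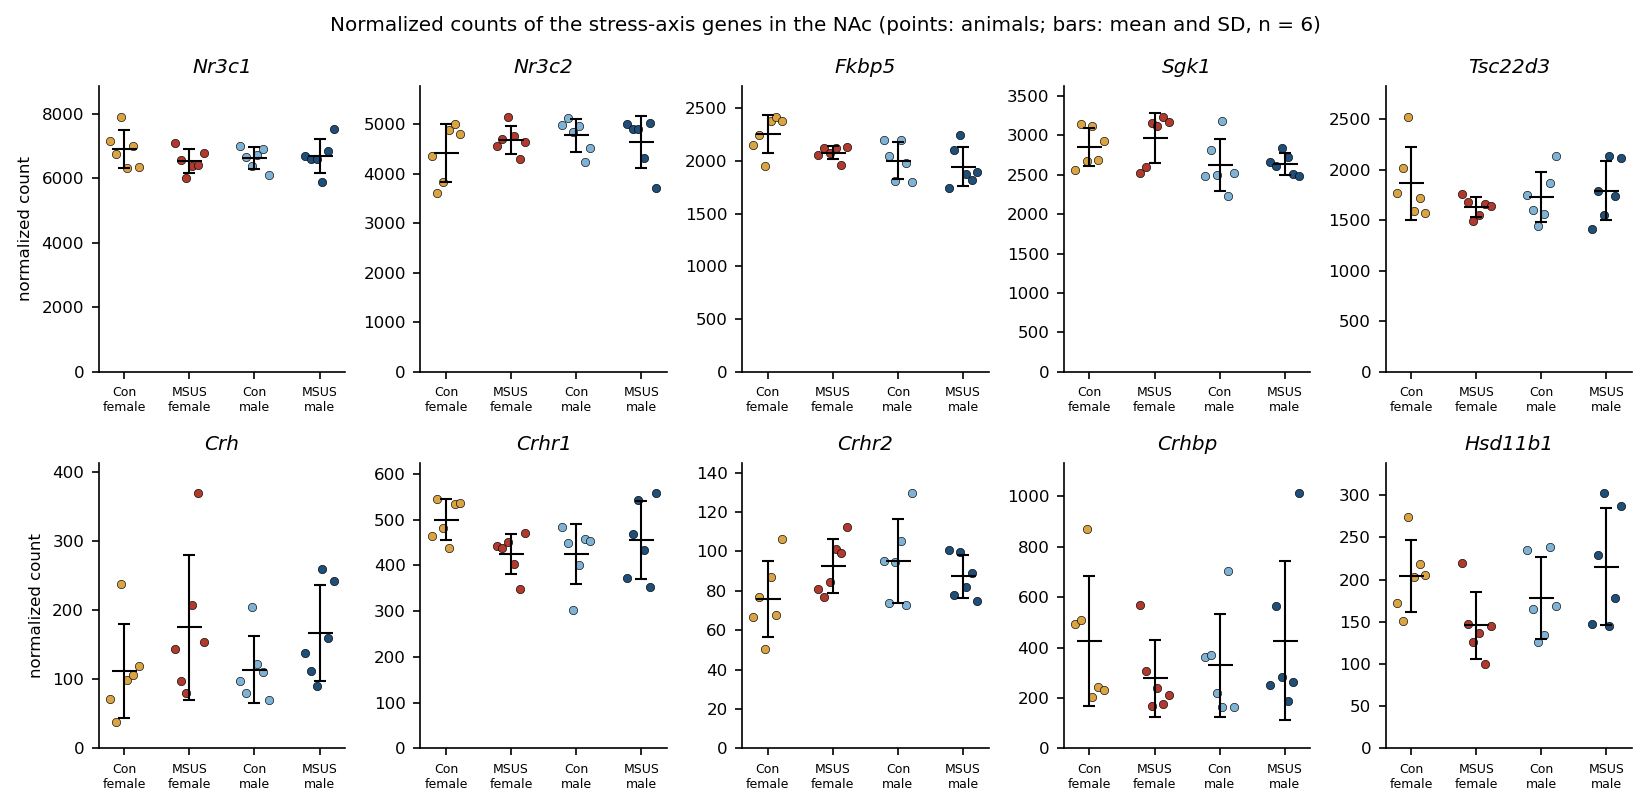
Normalized counts of each gene in every animal (points) with the mean and SD of each group of 6 (bars), all axes starting at 0. Crhr1 and Hsd11b1 sit lower in MSUS females than in Con females with overlapping ranges, and in males the groups overlap for every gene.

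Among the steroid receptors, Nr3c1 lay at 6329.6, 6874 and 7913 normalized counts (lowest, median and highest) in the 6 Con females and at 5999, 6496 and 7088 in the 6 MSUS females. The groups overlapped for all but 1 MSUS female. The log2 fold change was -0.08 ± 0.06 (SE), with an adjusted p of 0.357 (edgeR's quasi-likelihood test with Benjamini-Hochberg adjustment, as for all fold changes here). Nr3c2 lay at 3621, 4585 and 5008 in Con and at 4293, 4676 and 5158 in MSUS females, with a log2 fold change of 0.09 ± 0.08 and an adjusted p of 0.434. Within females the lowest values of Nr3c2 were those of Con animals, and the ranges overlapped.

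Of the genes induced by glucocorticoids, Fkbp5, a co-chaperone that lowers the affinity of the receptor for its ligand, lay at 1958, 2316 and 2422.5 in Con and at 1965, 2101 and 2135 in MSUS females. Each of the 6 MSUS females was under the median of Con, yet within the Con range. The log2 fold change was -0.11 ± 0.05 and the adjusted p 0.117, which did not pass. The value passed without Con female 3, the Con animal with the lowest Fkbp5 (-0.15, adjusted p = 0.0155). It also passed with library set (library numbers up to 12 against 13 to 24) as a covariate (-0.11, adjusted p = 0.0948) and with counts taken without regard to strand (-0.14, adjusted p = 0.0420). Tsc22d3, which encodes the anti-inflammatory protein GILZ, lay at 1570.4, 1745 and 2524 in Con and at 1494, 1649 and 1762 in MSUS females, with a log2 fold change of -0.19 ± 0.10 and an adjusted p of 0.221. The SD of Tsc22d3 was 361 in Con and 95.7 in MSUS females, so that Con values surrounded most of those of MSUS. Sgk1, a kinase gene that responds to both steroid receptors, lay at 2564, 2808 and 3141 in Con and at 2515, 3139 and 3235 in MSUS females. Of the MSUS females 3 lay above all Con females and 1 below them, and the log2 fold change of 0.06 ± 0.08 did not pass (adjusted p = 0.611).

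Hsd11b1 (chr1:193221634-193264075, minus strand, GRCm38) lay at 152, 204 and 274.5 normalized counts in Con females and at 100.3, 141 and 219.5 in MSUS females. Of the MSUS females 5 lay below every Con female, and the remaining one, MSUS female 1, lay above the Con median. Hsd11b1 fell by 28.3% in MSUS females, from 204 ± 42.3 to 146 ± 39.96 (SD, n = 6 each), with a log2 fold change of -0.48 ± 0.18 and an adjusted p of 0.0780. Within each library set of 3 MSUS and 3 Con females the log2 ratio of the means was -0.58 and -0.38. Without MSUS female 1 the log2 fold change was -0.63 (adjusted p = 0.0177). The call was lost, at adjusted p values from 0.102 to 0.157, without Con female 3, 4, 5 or 6 and without MSUS female 2, 3, 4, 5 or 6, where the log2 fold change stayed between -0.48 and -0.38. With the cortical marker score (the mean log2 CPM of the cortical markers) as a covariate it was -0.26 (adjusted p = 0.442), and with the share of pairs in no gene -0.57 (adjusted p = 0.760), a fit in which no gene tested passed. It also missed the threshold in the fit of all 24 animals (adjusted p = 0.129) and with no filter on low counts (adjusted p = 0.105). By the spans of the genes, Hsd11b1 overlaps Lamb3 and 4930570N18Rik on the other strand and Gm38118 on its own. Pairs that match exons of both Hsd11b1 and Gm38118 cannot be assigned, and are left out of the counts as ambiguous. Their number for Hsd11b1 is not known. Of its counts on both strands 1.70% lay on the antisense strand.

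Among the CRH genes, Crhr1 (chr11:104132855-104175523, plus strand) lay at 438, 508 and 545 normalized counts in Con females and at 348, 440.1 and 470.4 in MSUS females. Each of the 6 MSUS females was under the median of Con, and 3 of them were below every Con female. Crhr1 fell by 14.7%, from 500.0 ± 44.3 to 426 ± 43.7 (SD, n = 6 each), with a log2 fold change of -0.23 ± 0.08 and an adjusted p of 0.0668. Within the library sets the log2 ratio of the means was -0.25 and -0.21. The call was lost, at adjusted p values from 0.104 to 0.140, without Con female 2, 5 or 6 and without MSUS female 2, 4 or 5, where the log2 fold change lay between -0.23 and -0.18. With the cortical marker score as a covariate it was -0.15 (adjusted p = 0.396) and with the share of pairs in no gene -0.45 (adjusted p = 0.760). It missed the threshold as well in the fit of all 24 animals (adjusted p = 0.166).

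The other CRH receptor gene, Crhr2, went the other way, at 50.5, 72.1 and 106 in Con and 76.9, 91.7 and 113 in MSUS females, with all 6 MSUS females above the Con median. Its log2 fold change of 0.29 ± 0.16 did not pass (adjusted p = 0.240) and did so only without Con female 6 (0.41, adjusted p = 0.0834). The peptide gene Crh (chr3:19693401-19695396, minus strand) lay at 37.4, 103 and 237 in Con and at 79.9, 148 and 369 in MSUS females, with a log2 fold change of 0.65 ± 0.44 and an adjusted p of 0.325. Crhbp (chr13:95431371-95444924, minus strand), which encodes the CRH-binding protein, lay at 204, 369 and 871 in Con and at 166, 225 and 571 in MSUS females, with a log2 fold change of -0.61 ± 0.42 and an adjusted p of 0.334. Crh and Crhbp had the widest spread of the 10 genes, and differences in mean of this size did not exceed the spread between animals.

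**Figure D3:**
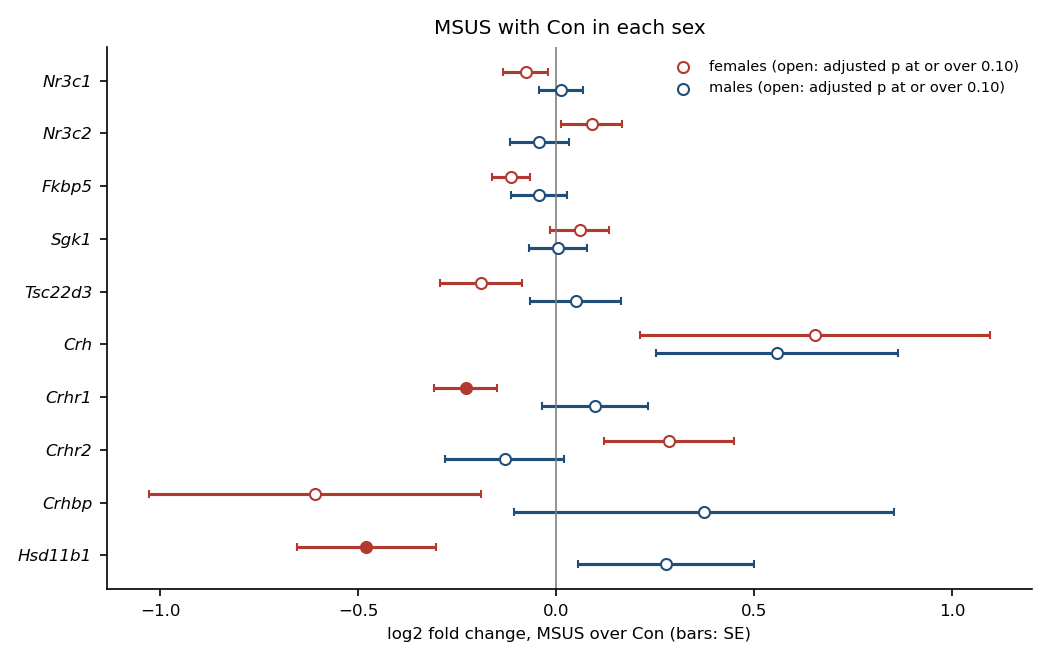
Log2 fold change of MSUS over Con (x axis, bars show the SE) for each gene in females and in males, with filled points for an adjusted p under 0.10. The filled points are Crhr1 at -0.23 and Hsd11b1 at -0.48 in females, and no gene is filled in males.

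In males, none of the 10 genes passed, at an adjusted p of 1.00 for each, and none of all 20691 genes tested passed either (0%). At an unadjusted p under 0.05 there were 0 of the 10 genes and 191 of all genes (0.923%), and DESeq2 called 0. The log2 fold changes lay between -0.13 ± 0.15 for Crhr2 and 0.56 ± 0.31 for Crh. Crhr1 lay at 303, 451 and 485 in Con and at 352, 451 and 558 in MSUS males, with a log2 fold change of 0.10 ± 0.13. Hsd11b1 lay at 127, 166 and 239 in Con and at 145, 204 and 303 in MSUS males, with a log2 fold change of 0.28 ± 0.22. Both genes were lower in MSUS females, and in males their means were higher in MSUS within overlapping ranges.

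Whether the effect of MSUS differed between the sexes was tested by the interaction of group and sex over the 24 animals. None of the 10 genes passed, and none of all 21500 genes tested did (0%), while DESeq2 called 467 genes (2.17%) and none of the 10. At an unadjusted p under 0.05 there were 2 of the 10 genes and 18.7% of all genes. These were Hsd11b1, with a difference between the female and male log2 fold changes of -0.76 ± 0.30 (adjusted p = 0.217), and Crhr1, with -0.33 ± 0.16 (adjusted p = 0.265). Without MSUS male 1 the value of Hsd11b1 passed (-0.84, adjusted p = 0.0808), in a fit that called 3031 genes in all. A difference between the sexes in the effect of MSUS was therefore not shown for either gene. Crh had log2 fold changes of 0.65 and 0.56 in females and males, and its interaction was 0.09 ± 0.56 (adjusted p = 0.944).

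Females were also compared with males within each condition. In Con animals none of the 10 genes passed, against 2.64% of all 20641 genes, and the smallest adjusted p was that of Fkbp5 (0.198), with a log2 ratio of females over males of 0.18 ± 0.07. In MSUS animals none passed, against 0.135% of all 20714 genes, and the smallest adjusted p was that of Hsd11b1 (0.646), with a log2 ratio of -0.57 ± 0.22. The Con females are shared by the comparison with MSUS females, and Fkbp5 lay at 1806, 2013 and 2199 in Con males and 1745, 1891 and 2246 in MSUS males. At an unadjusted p under 0.05 there were 2 of the 10 genes in each of these comparisons. The share of all genes was 17.8% in Con and 7.29% in MSUS animals. In Con animals the genes were Fkbp5 and Crhr1. Crhr1 had a log2 ratio of 0.24 ± 0.10 (adjusted p = 0.247), with means of 500.0 in Con females and 424 in Con males. In MSUS animals they were Hsd11b1 and Sgk1 (0.17 ± 0.07, adjusted p = 0.667).

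The genes differed in how much they varied between animals of the same group. Crhbp had a within-group coefficient of variation of 62.7%, at the 98.9th percentile of 3691 genes of a like level (within 2-fold), for which the median was 10.4%. Crh had 51.3%, at the 97.6th percentile. In contrast, Nr3c1 varied by 6.77%, at the 54.4th percentile, and Fkbp5 by 7.37%. Over all animals Crhbp ranged from 163 to 1013 normalized counts. Its highest value was in MSUS male 6 and its lowest in Con male 6.

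The variation of Crhbp went with the markers of cortical neurons, and the correlation of Crh with them did not pass (r = -0.23 and rho = -0.22, permutation test, adjusted p = 0.388 and 0.481). Correlations were computed over the 24 animals with each group centred on its mean, on log2 CPM, for the 10 genes with the cortical marker score and with the share of pairs in no gene (20 relations, permutation tests within groups, Benjamini-Hochberg adjusted). Both sides of a correlation come from the same library. Crhbp followed the cortical score at r = 0.93 and rho = 0.94, with an adjusted p of 0.0002 for both, from a raw p of 1e-05, the smallest that the permutations can give. Without the 2 animals farthest from the median score r was 0.94, and it was 0.93 in each library set. Nr3c1 followed it at r = 0.76 and rho = 0.69 (permutation test, adjusted p = 0.0009 and 0.0066), with r = 0.76 without the 2 farthest animals and r = 0.73 and 0.82 in the library sets. Hsd11b1 followed it at r = 0.65 and rho = 0.63 (permutation test, adjusted p = 0.0123 and 0.0137), with r = 0.57 without the 2 farthest animals and 0.76 and 0.52 in the library sets. Crhr2 ran against the score at r = -0.60 and rho = -0.63 (permutation test, adjusted p = 0.0143 and 0.0137), with r = -0.59 without the 2 farthest animals and -0.61 and -0.59 in the sets.

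Sgk1 also ran against it at r = -0.55 (permutation test, adjusted p = 0.0411), with rho = -0.51 (adjusted p = 0.0756), r = -0.51 without the 2 farthest animals, and -0.80 and -0.34 in the library sets. Crhr1 had r = 0.47 and rho = 0.41, which did not pass 0.05 after adjustment (permutation test, 0.1 and 0.164), with r = 0.33 without the 2 farthest animals and 0.45 and 0.70 in the library sets. The remaining 4 genes, Nr3c2, Fkbp5, Tsc22d3 and Crh, and all 10 genes with the share of pairs in no gene, did not pass 0.05 either. Of the 8 cortical markers, 2 passed the test in females, Emx1 and Fezf2, both lower in MSUS, and the median log2 fold change of the list was -1.82. This count is near the share of all genes, of which 25.1% passed in females and 11.9% were lower. With the cortical score as a covariate, the female log2 fold change of Crhbp was 0.37 in place of -0.61. Of the markers of oligodendrocytes, 5 of 6 were lower in MSUS females, against 11.9% of all genes, with a median log2 fold change of -0.26. Of the striatal markers 0 of 9 passed.

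**Figure D4:**
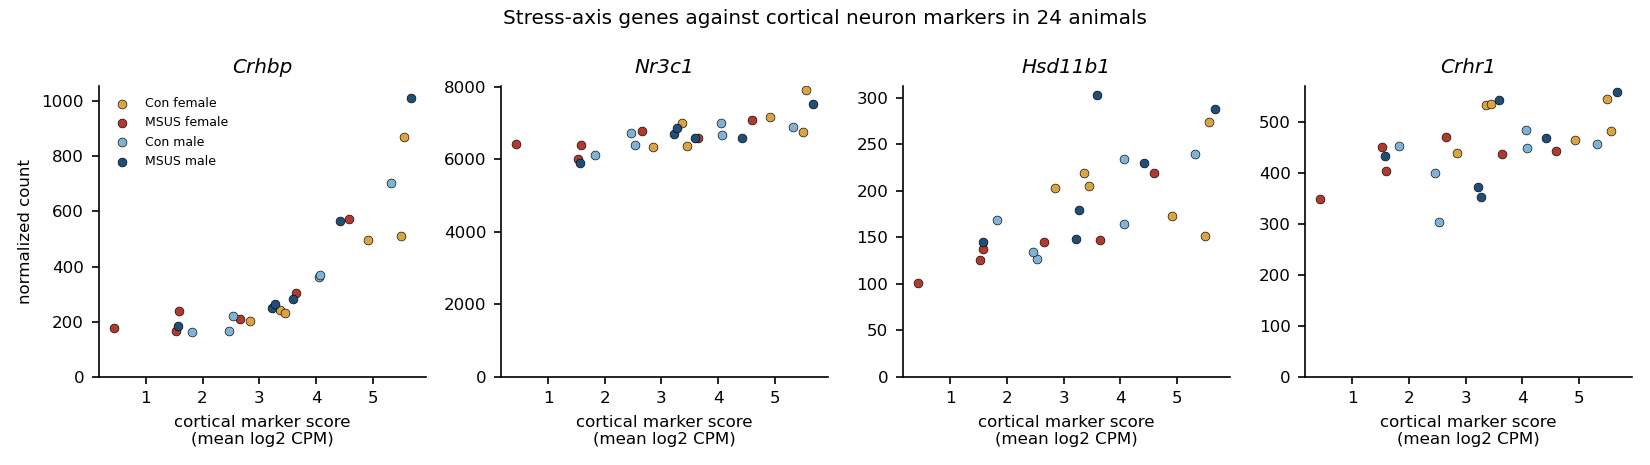
Normalized counts of Crhbp, Nr3c1, Hsd11b1 and Crhr1 (y axes, from 0) against the cortical marker score (mean log2 CPM) in the 24 animals, coloured by group. The highest Crhbp, 1013 normalized counts in an MSUS male, lies at the highest score, 5.67.

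The genes whose group-centred levels were most like those of each member were taken from 12611 genes with a mean of at least 100 counts, as a description over 24 animals that share library and tissue. For Crhbp these were Cck (r = 0.98), a neuropeptide gene, B3galt2 (0.98) and Hs3st2 (0.98). For Nr3c1 they were Maf (0.93), Vps13a (0.91) and Gpm6a (0.91), and for Nr3c2 Setd6 (0.93), Strip2 (0.92) and Nfx1 (0.92). For Hsd11b1 they were Pla2g7 (0.93), Aggf1 (0.91) and Arhgap29 (0.91), and for Crhr1 Med15 (0.86), Fam189b (0.85) and Cntnap1 (0.85). For Fkbp5 they were Ccm2 (0.93), Inf2 (0.90) and Cish (0.88), for Sgk1 Ccdc88c (0.91), Cacng3 (0.89) and Ddit4l (0.89), and for Tsc22d3 Endod1 (0.92), Disp2 (0.92) and Mta3 (0.91). The closest genes of Crh were less close, namely Prkar2a (0.80), Wnk3 (0.79) and Pnma2 (0.76). Crhr2 had a mean under 100 counts and was left out. No member was among the 3 genes closest to another, and the highest r between members was 0.78, between Nr3c1 and Crhbp, followed by 0.65 between Crhr1 and Hsd11b1. The lowest was -0.77, between Nr3c2 and Tsc22d3.

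The pathway was widened by 5 lists of further genes. Of 12 chaperones and co-chaperones of the glucocorticoid receptor, 5 were lower in MSUS females and 0 higher (41.7% called, against 25.1% of all genes), with a median log2 fold change of -0.16. Bag1, a co-chaperone of Hsp70, fell by 16.9% (log2 fold change -0.27 ± 0.04, adjusted p = 0.00309), with all 6 MSUS females below every Con female. Stub1, a chaperone-linked ubiquitin ligase, also fell without overlap (-0.16 ± 0.04, adjusted p = 0.0183). The groups did not overlap for 2 of the 12 genes, against 7.21% of all genes. Hsp90ab1, an Hsp90 gene, fell by 11.2% (-0.17 ± 0.04, adjusted p = 0.0228), and Ppp5c and Dnajb1 were the others. Of 8 coactivators and corepressors, 1 was lower and 0 higher, namely Smarca4, a chromatin remodeler (-0.11 ± 0.03, adjusted p = 0.0414). The coactivator gene Ncoa1 had the next smallest p (-0.08 ± 0.03, adjusted p = 0.133), and passed without Con female 3 (-0.10, adjusted p = 0.0568), with DESeq2 (adjusted p = 0.0773) and with counts without regard to strand (adjusted p = 0.0433).

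Of 17 further genes known to be induced by glucocorticoids, 4 were lower and 0 higher (23.5% called), with a median log2 fold change of -0.15 and 15 of 17 below 0. This share is near that of all genes, of which 25.1% were called. Rhob, a small GTPase gene, fell by 9.75% (-0.15 ± 0.03, adjusted p = 0.0129) and Cdkn1a, a cell-cycle inhibitor gene, by 16.3% (-0.26 ± 0.07, adjusted p = 0.0319), both without overlap. The groups did not overlap for 2 of the 17 genes, against 7.21% of all genes. Klf9, a transcription factor gene, fell by 9.84% (-0.15 ± 0.05, adjusted p = 0.0624), and Errfi1 was the other. Klf9 lost its call without Con female 2 and without MSUS female 2, 3, 4 or 5 (adjusted p = 0.1085 to 0.149). Per1 was at -0.06 ± 0.07 (adjusted p = 0.561) and Dusp1 at -0.31 ± 0.20 (adjusted p = 0.298). Of 6 genes that set local steroid levels 4 passed the filter, and 2 of these were lower and 0 higher, where 11.9% of all genes were lower. They were Srd5a1, which encodes a steroid 5-alpha-reductase (-0.41 ± 0.10, adjusted p = 0.0187), and H6pd, which supplies the cofactor of the Hsd11b1 enzyme (-0.13 ± 0.05, adjusted p = 0.0702). H6pd lost its call without Con female 1, 2 or 4 and without MSUS female 2, 4, 5 or 6 (adjusted p = 0.101 to 0.157). Hsd11b2, which inactivates corticosterone, and Serpina6 were filtered out for low counts.

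Of 12 further stress peptides and receptors 7 passed the filter and 1 was higher, the vasopressin receptor gene Avpr1a. This is 14.3% of those tested, against 25.1% of all genes called and 13.1% higher. Its normalized counts were 15.2 ± 10.8 in Con and 46.5 ± 13.5 in MSUS females (SD, n = 6 each), with 5 MSUS females above every Con female, a log2 fold change of 1.61 ± 0.38 and an adjusted p of 0.0164. In males Avpr1a had means of 34.8 ± 38.2 in Con and 33.3 ± 31.8 in MSUS (SD), with medians of 18.5 and 18.6. The interaction of Avpr1a did not pass (1.68 ± 0.86, adjusted p = 0.288). The peptide gene Adcyap1 had the next smallest p (-1.22 ± 0.91, adjusted p = 0.374), and passed without MSUS female 1 (-2.65, adjusted p = 0.0428). Ucn, Ucn2, Avp, Avpr1b and Oxt were filtered out. In males 0 genes of the 5 lists passed. With the share of pairs in no gene as a covariate none of these calls in females held, and no gene tested passed there. In females this covariate cannot reliably be separated from MSUS. With the cortical score Bag1, Stub1, Rhob and Avpr1a still passed, and the other 6 genes called in females and given above with their values did not.

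Between the sexes, 4 genes of these lists were higher in Con females than in Con males (against 2.64% of all genes called), namely 3 of the 17 glucocorticoid-induced genes and 1 of the 12 chaperones. Dusp1, a phosphatase gene of rapid stress responses, was higher by 0.76 ± 0.14 on the log2 scale (adjusted p = 0.0562) and Per1, a clock gene, by 0.32 ± 0.07 (adjusted p = 0.0763). Cdkn1a was higher by 0.30 ± 0.07 (adjusted p = 0.0732) and the Hsp40 gene Dnajb1 by 0.29 ± 0.05 (adjusted p = 0.0544). Each lost its call without certain Con animals, at adjusted p values up to 0.174. These were females 1 and 4 and males 1, 3 and 4 for Dusp1, females 4 and 5 and males 1, 3 and 4 for Dnajb1, females 1, 2, 4 and 5 and males 1, 3 and 6 for Per1, and females 1, 2, 4 and 5 and males 1, 3, 4 and 6 for Cdkn1a. None of the 4 passed with the share of pairs in no gene as a covariate (adjusted p = 1.00). With the cortical score Dusp1 (adjusted p = 0.1205), Cdkn1a (0.141) and Dnajb1 (0.1101) missed the threshold. In the fit of all 24 animals Cdkn1a (adjusted p = 0.2405), Per1 (0.104) and Dnajb1 (0.104) missed it. In MSUS animals 0 genes of the 5 lists passed between the sexes.

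**Figure D5:**
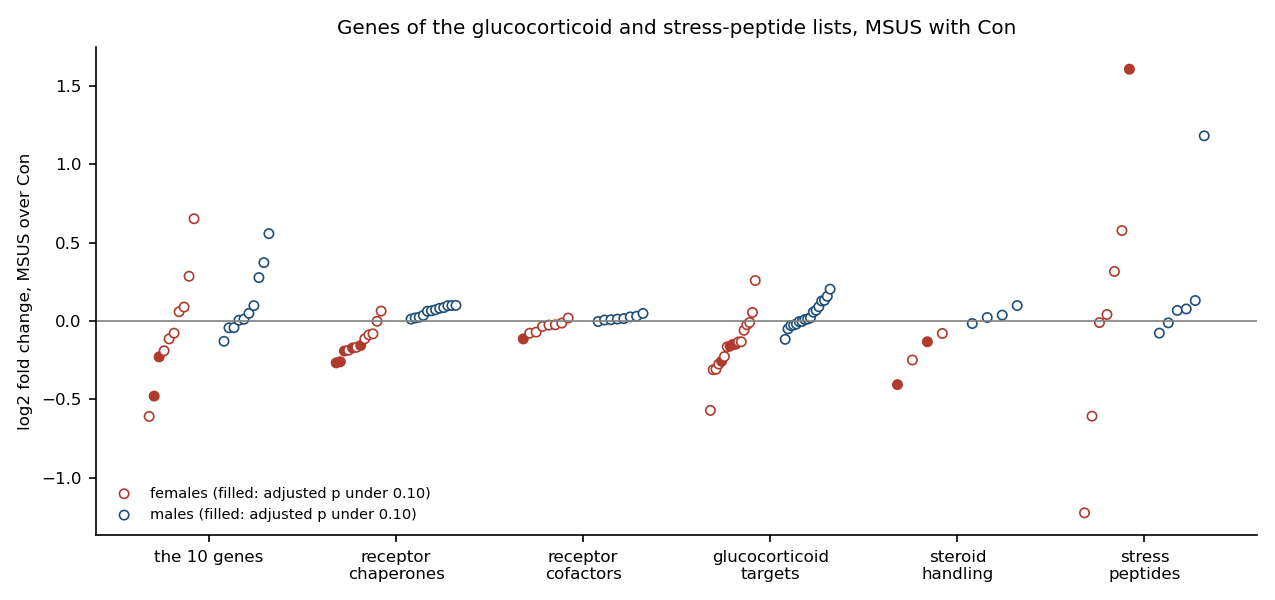
Log2 fold change of MSUS over Con (y axis) for each tested gene of the 10 members and of the 5 pathway lists, in females and in males, filled where the adjusted p was under 0.10. The filled points below 0 in females include 5 of 12 chaperones and 4 of 17 target genes, and the only filled point above 0 is Avpr1a at 1.61.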

How the data were processed

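The NAc of each of 24 mice gave 1 RNA-seq library. According to the methods of the study and the submitters' processing notes, ribosomal RNA was depleted, 100 bp pairs were sequenced, and reads were aligned to mm10 with STAR 2.6.1b and GENCODE M15. The authors deposited unnormalized STAR counts of uniquely mapped pairs, in 3 columns that differ in how strand is treated, and the sense-strand counts were used. Gene names and positions came from GENCODE M21 (GRCm38), which holds 52489 of the 52636 identifiers. The depth per library is given with the data.

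Genes were filtered by edgeR's filterByExpr (minimum count 10), normalized by TMM and tested with the robust quasi-likelihood F test of edgeR 4.0.16 in R 4.3.3, with Benjamini-Hochberg adjustment over all genes tested and a threshold of 0.10. Size factors and the alternative test were those of DESeq2 1.42.0. Scores used log2(CPM + 0.1). Correlations used 100000 permutations within groups (Python 3.11.15, numpy 2.4.6, scipy 1.17.1). The model of the study held the estrous stage, which was left out here because the labels give a stage to 6 females and 6 males and none to the other females. The lowest chi-square per gene over 60 pairs of libraries within groups was 6.34, so no library was a copy of another in its group. Pairs between groups were not compared.

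The members and the gene lists were chosen with earlier results of these data known. Once the results were known, 1 gene was removed from the pathway lists and is not reported here. All members were named. Of each pathway list, the 3 genes called in females with the smallest p were named, and where fewer were called, those and then the smallest p until 2 were named. The other called genes, those called between the sexes, and the genes filtered out were named after their values were seen. Likeness was ranked by Pearson's r, leaving out unnamed gene models. Upstream sequences came from RefSeq on GRCm38.p6. Marker lists of astrocytes (1 of 6 lower in females), microglia (0 of 6), endothelial cells (0 of 6), interneurons (2 lower and 1 higher of 7) and choroid plexus and meninges (0 of 4 tested) were also counted. Of all genes 25.1% were called in females. The alternatives are given with their effect in the closing section.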

Additional observations from a re-analysis of the deposited data

Results flagged for a closer look

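Crhbp in MSUS females stood out by 1 animal. MSUS female 1 had 571 normalized counts, and the next highest of the 6 had 306. The gap was 0.656 of the range of the group, above the critical value of Dixon's test for 6 animals. Of 40 groups tested (10 genes in 4 groups) 1 was picked out, and chance picks out about 5% of groups. The same animal had the highest cortical marker score of the MSUS females (4.59, against 0.431 to 3.64 in the others), and the part of this in its Crhbp was not tested.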

How the results depend on the processing

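In females the call of Crhr1 and Hsd11b1 rested on the settings. The number of the 10 genes called was 2 in the fit as reported, 2 or 3 with DESeq2, its size factors, the stricter filter, counts without regard to strand and library set, 1 with no filter on low counts, and 0 at an adjusted p under 0.05, with the share of pairs in no gene, with the cortical marker score and in the fit of all 24 animals. It ranged from 0 to 2 when each animal was left out. All genes called in females numbered 3126 at an adjusted p under 0.05, 0 with the share of pairs in no gene and 1912 with the cortical score, and 3102 (without MSUS female 3) to 5737 with an animal left out. With the cortical score as a covariate the direction turned for Nr3c1 (0.021), Nr3c2 (-0.0090), Sgk1 (-0.072), Crhbp (0.37) and Adcyap1 (0.24) in females and for Crh in the interaction (-0.20), and with the share of pairs in no gene for Nr3c1 (0.0073). None of these was a called value, and the cause was not tested. The interaction of Crh ranged from -0.27 to 0.46 with an animal left out. Over the 10 alternative fits that kept every animal, H6pd was called in females in 5 and Klf9 in 6. Smarca4 and Cdkn1a were called in 7, Hsp90ab1 and Srd5a1 in 8, and Bag1, Stub1 and Rhob in 9. Avpr1a was called in 8 of 9. In the interaction DESeq2 called 467 genes, and leaving out an animal gave 0 to 3031 genes (without MSUS male 1) and 0 or 1 of the 10. No gene was called in males under any setting. Of all genes, those that differed by sex in Con numbered 32 at an adjusted p under 0.05, 1511 with DESeq2, 338 with no filter, 1362 without regard to strand, 11 with the share of pairs in no gene, 43 with the cortical score, 62 in the fit of all animals, and 20 to 1395 with an animal left out. In MSUS animals they numbered 167 with DESeq2, 16 with the stricter filter, 71 with library set, and 14 to 64 with an animal left out. For the 31 further values of members in males, the interaction and the sexes, 0 of 759 alternative values passed and 47 turned direction.

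The animals share only a replicate number: correlations of same-numbered deviations lay between -0.24 and 0.25 in females. With the replicate block 0 of the 10 genes and 3800 of all genes were called in females, with Crhr1 at -0.23 (adjusted p = 0.1003) and Hsd11b1 at -0.49 (adjusted p = 0.139), and 12 genes in the sexes of Con, where Dusp1, Cdkn1a and Dnajb1 (adjusted p = 0.176 each) and Per1 (0.206) were not called.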
